A study of Homo sapiens with 24 samples.

Results

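A set of 10 S100 genes, which encode small calcium-binding proteins, were followed in MIA PaCa-2 cells, an established human pancreatic carcinoma line, while expression of the transcription factor C/EBPδ was switched on. The genes were S100A2, S100A3, S100A4, S100A6, S100A10, S100A11, S100A13, S100A14, S100A16 and S100P. They were found in the count table by matching gene identifiers to these symbols, and all 10 of 10 were present among 60675 identifiers. C/EBPδ-inducible cells carried a Tet-On construct with the CEBPD cDNA and a green fluorophore (mVenus), and were a pool of 3 clones. CTRL cells carried the same construct without the cDNA and a red fluorophore (mCherry). Both lines were sampled at 0, 8, 24 and 48 h of doxycycline, with 3 libraries per group and 24 libraries in all. The labels name a dose of 2 µg/mL for every group, 0 h included, whereas the study describes cells without doxycycline as untreated. The 2 lines thus differ in the cDNA, the fluorophore and the selection of clones, and these cannot be told apart in a comparison at 0 h. Culture time and doxycycline change together within a line, so that the CTRL cells serve as the reference for both.

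S100 proteins are small EF-hand proteins that mostly act as dimers: calcium binding opens a surface through which they hold target proteins. They have no enzyme activity of their own and work through partners such as annexins, the heavy chain of non-muscle myosin and the receptor AGER. Several of them, among them S100A4, S100P and S100A2, are known for raised expression in carcinomas, including those of the pancreas, and for links to cell motility. Most S100 genes lie in 1 cluster on chromosome 1, within the region that also holds the epidermal differentiation genes.

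In the GENCODE annotation of GRCh38, 9 of the 10 genes lay on chromosome 1, all on the minus strand, from S100A10 (151982915 to 151993859) to S100A13 (153618787 to 153631360). S100P was the exception, on the plus strand of chromosome 4 (6693878 to 6697170). S100A3 (153547329 to 153549258) lay inside the span of S100A4 (153543613 to 153550136) on the same strand, without shared exon bases. Exons of S100A13 shared 235 bases with S100A1 on the other strand and 536 bases with the non-coding ENSG00000271853 on its own strand, and exons of S100A6 shared 37 bases with the non-coding ENSG00000238279 on the other strand. The strand setting of the counting is not stated in the sources used here, so reads from these overlaps cannot be assigned with certainty.

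Promoter sequences are shown for the 4 genes whose levels carry most of the results, as the 250 bases before the start of each gene in RefSeq (GRCh38.p14), written 5′ to 3′ along the gene. They were searched on both strands for TTGCNNAA, which holds the conserved ends of the letters that C/EBP factors prefer. Capitals mark a match. Of the 4, only the S100A11 window (chr1:152037005-152037254, minus strand) held a match, TTGGGCAA, whose first base lay 33 bases before the start and which reads as the motif on the strand opposite to the gene. S100A10 is chr1:151993860-151994109, S100A4 is chr1:153545807-153546056 and S100A16 is chr1:153613146-153613387, all on the minus strand. The S100A11 and S100A4 windows lie inside the GENCODE spans of these genes (152032506 to 152047907 and 153543613 to 153550136). Their starts are thus not the outermost annotated ones. The S100A16 window is 242 bases long, since 8 bases that are exon in another transcript were left out.
S100A11: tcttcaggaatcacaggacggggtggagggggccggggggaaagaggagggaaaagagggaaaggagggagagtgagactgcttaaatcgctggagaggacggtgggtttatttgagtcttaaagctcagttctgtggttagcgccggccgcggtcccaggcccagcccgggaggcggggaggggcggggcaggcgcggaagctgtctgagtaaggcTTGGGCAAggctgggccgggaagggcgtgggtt
S100A10: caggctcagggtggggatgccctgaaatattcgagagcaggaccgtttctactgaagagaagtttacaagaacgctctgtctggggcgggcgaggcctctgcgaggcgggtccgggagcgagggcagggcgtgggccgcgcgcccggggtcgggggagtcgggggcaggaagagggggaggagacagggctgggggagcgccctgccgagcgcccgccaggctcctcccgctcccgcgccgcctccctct
S100A4: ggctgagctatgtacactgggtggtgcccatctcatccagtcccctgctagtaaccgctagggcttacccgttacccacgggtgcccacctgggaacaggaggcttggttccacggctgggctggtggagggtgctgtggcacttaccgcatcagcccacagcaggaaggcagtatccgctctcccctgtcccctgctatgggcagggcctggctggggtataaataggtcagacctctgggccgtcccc
S100A16: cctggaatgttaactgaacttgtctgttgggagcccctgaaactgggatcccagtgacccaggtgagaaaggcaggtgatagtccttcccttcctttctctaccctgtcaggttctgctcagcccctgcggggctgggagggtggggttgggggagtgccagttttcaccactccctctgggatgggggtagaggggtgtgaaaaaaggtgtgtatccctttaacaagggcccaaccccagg

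RefSeq gave 14 windows for the 10 genes, and 1 of the 14 held the motif, against 9.05% of 35116 windows of all genes. A match is a run of letters and was not tested for binding.

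Library totals ran from 12731237 to 22598595 counts, with a median of 18959363.5, and the S100 genes together took 0.122% to 0.172% of the counts of a library. CEBPD itself stood at 3.95 ± 0.247 CPM (SD, n = 3; CPM is the count scaled to library size with TMM factors) in CTRL cells and 21.6 ± 2.36 CPM in inducible cells at 0 h, and at 307 ± 12.6 CPM in inducible cells at 24 h. Counts of the construct and of the gene's own transcript cannot be separated. VIM, a mesenchymal marker, was high in both lines (6941 and 5846 CPM at 0 h), whereas the epithelial keratin KRT8 was at 1561 CPM in CTRL cells and 74.4 CPM in inducible cells. The summed epithelial markers (6 genes) ran from 2068 to 2953 CPM in CTRL libraries and from 115.8 to 208.6 CPM in inducible libraries, EPCAM had 43 counts or fewer in every library, and the acinar markers summed to at most 0.0532 CPM. The epithelial sum was carried by KRT8, KRT18 and KRT19, while the low CDH1 was higher in inducible cells at 8 h (4.76 against 0.709 CPM) and at 48 h (3.74 against 1.03 CPM), and KRT7 was at 1.40 against 0.596 CPM at 24 h. Summed ductal markers (178.7 to 217.8 CPM in CTRL and 64.1 to 107 CPM in inducible libraries) and fibroblast markers (449 to 689 and 137 to 254 CPM) also differed with the line. The part of these keratin, ductal and fibroblast marker differences in the S100 differences between the lines was not tested. In bulk RNA a lower level cannot tell fewer expressing cells from less RNA per cell.

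Per kilobase of exon, S100A11 was the most abundant of the 10, with a mean of 720.9 CPM per kb over the 24 libraries. S100A6 followed with 539.5, S100A10 with 281.8 and S100A4 with 151.3 CPM per kb. The other 6 genes were more than 10 times lower, S100A16 at 12.1, S100A13 at 11.9, S100A2 at 3.93, S100A3 at 1.69, S100P at 1.49 and S100A14 at 0.331 CPM per kb. Ranges over libraries overlapped between S100A11 (599.6 to 847.3) and S100A6 (440.6 to 674.1), between S100A10 (137.8 to 382.1) and S100A4 (89.4 to 228.8), between S100A16 and S100A13, and between neighbours from S100A2 down to S100A14, whereas S100A13 (lowest 9.62) lay above S100A2 (highest 6.51) in every library. S100A16 was the gene whose group means spread most, by 2.32 on the scale of log2(CPM + 1), followed by S100A10 with 1.37 and S100A3 with 1.33. S100A14 (0 to 30 counts) and S100P (0 to 30 counts) lay near the limit of 3 counts, which corresponds to 0.130 to 0.236 CPM depending on the library.

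**Figure D1:**
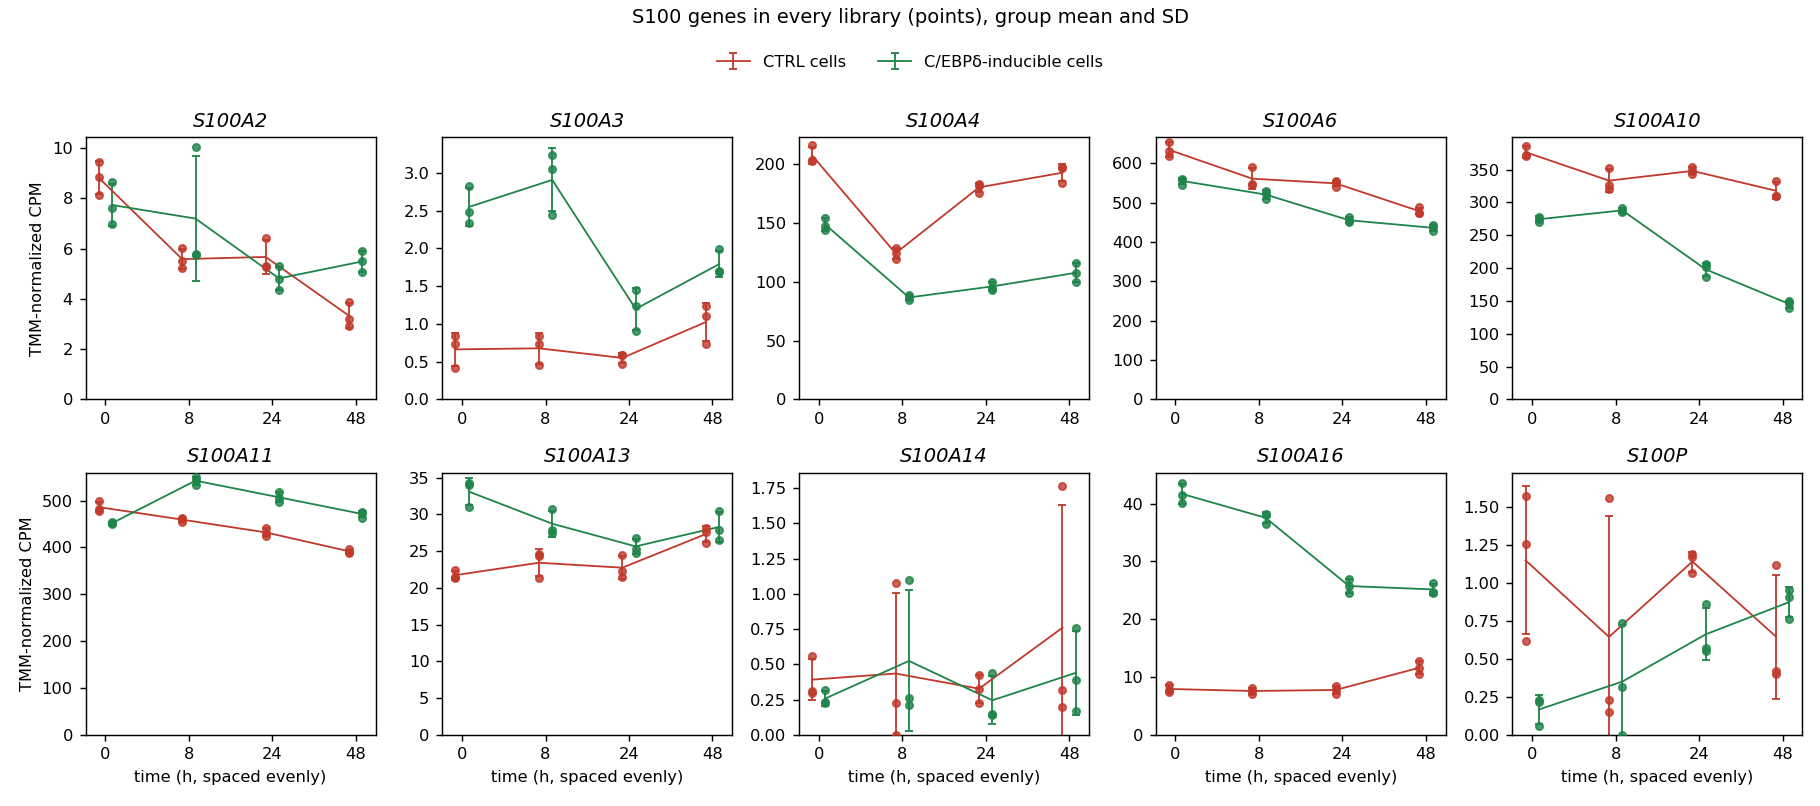
Levels of the 10 S100 genes in TMM-normalized CPM (vertical axis, from 0) at 0, 8, 24 and 48 h (horizontal axis, spaced evenly), with CTRL cells in red and C/EBPδ-inducible cells in green. Points are libraries, lines join group means and bars are the SD of 3 libraries. Libraries of CTRL and inducible cells do not overlap at any time for S100A3, S100A4, S100A6, S100A10, S100A11 and S100A16. Among all genes, 54.4% to 61.8% do not overlap, depending on the time.

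Each line difference, time effect and difference between the lines in their time effect was tested with edgeR's quasi-likelihood test, fitted on all genes, with Benjamini-Hochberg adjustment and an FDR of 0.01. These comparisons share libraries, since each 0 h group enters several of them, so their values are given side by side and not as independent evidence. Between the lines, 8 of 9 tested S100 genes differed at 0 h (3 higher and 5 lower in inducible cells), against 43.9% of all genes tested. At 8 h 5 of 8 differed (3 higher, 2 lower), against 31.8% of all genes, at 24 h 6 of 9 (3 higher, 3 lower), against 46.9%, and at 48 h 6 of 9 (3 higher, 3 lower), against 38.3%. The lines thus differed in S100 expression at 0 h as well as later. Overlap of libraries is also described below. Between the lines, libraries did not overlap for 60.2% of all genes at 0 h, 54.4% at 8 h, 61.8% at 24 h and 57.1% at 48 h. Against 0 h they did not overlap for 49.7%, 36.5% and 55.5% of all genes at 8, 24 and 48 h in inducible cells, and for 26.7%, 28.6% and 52.7% in CTRL cells.

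Within the inducible cells, 24 h of doxycycline was the time at which most S100 genes differed from 0 h. All 9 tested genes were called, 7 lower and 2 higher, against 15.5% of all genes, and their median log2 change was −0.47 against 0.0036 over all genes. At 8 h 4 of 8 were called (1 higher, 3 lower), against 30.5% of all genes, and at 48 h 7 of 9 (1 higher, 6 lower), against 38.7%. In CTRL cells, 1 of 9 was called at 8 h (lower), against 1.7% of all genes, 4 of 9 at 24 h (all 4 lower), against 6.06%, and 6 of 9 at 48 h (2 higher, 4 lower), against 30%. The median S100 change in CTRL cells was −0.15 at 8 h, −0.17 at 24 h and −0.25 at 48 h, against 0.012, 0.0032 and 0.0088 over all genes. At 24 and 48 h more of the called S100 genes were lower than higher in both lines.

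The interaction, that is the log2 change from 0 h in inducible cells minus that in CTRL cells, was called for 1 of 10 S100 genes at 8 h (higher), against 1.66% of all genes. It was called for 5 of 9 at 24 h (1 higher, 4 lower), against 5.84%, and for 7 of 10 at 48 h (3 higher, 4 lower), against 5.54%. It was called at both 24 and 48 h for S100A10, S100A4, S100A16 and S100A13, with negative values, and for S100A11, with positive values. For S100A6 and S100A3 it was not called at any time.

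**Figure D2:**
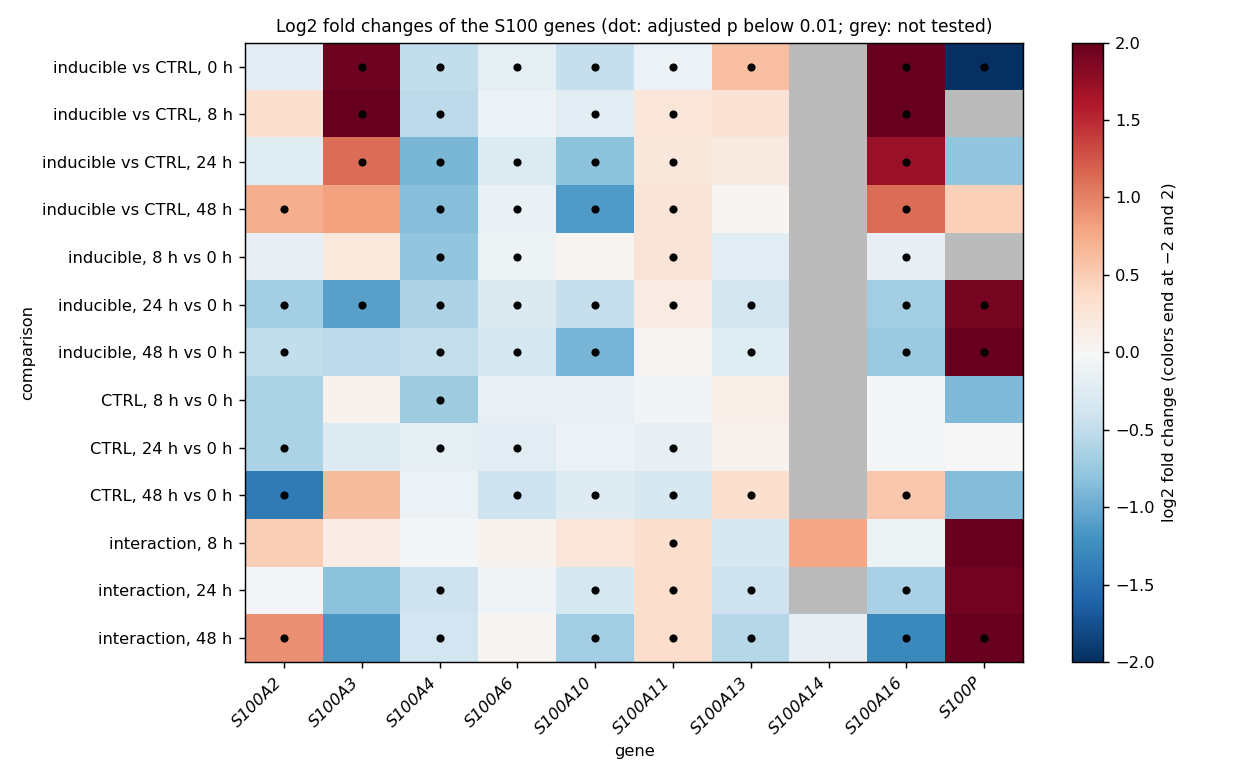
Log2 fold changes of the S100 genes (columns) in the 13 comparisons (rows), with red for higher, blue for lower, grey for genes left out by the low-count filter and a dot for an adjusted p below 0.01. The S100A16 column is red in the 4 comparisons between the lines and blue within the inducible cells, and the S100A11 column is red with a dot in all 3 interaction rows.

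S100A10, known as p11, is the partner of annexin A2 in a complex at the inner face of the plasma membrane, and is unusual among S100 proteins in not binding calcium itself. In CTRL cells its levels were 387, 372 and 371 CPM at 0 h, 327, 320.3 and 353 CPM at 8 h, 354, 348 and 343 CPM at 24 h and 311, 333 and 310.2 CPM at 48 h. In inducible cells they were 279, 275 and 269.6 CPM at 0 h, 292, 285 and 286 CPM at 8 h, 187, 206 and 201 CPM at 24 h and 150.0, 139 and 146 CPM at 48 h. Every inducible library lay below every CTRL library of the same time, and within the inducible cells the 24 h and the 48 h libraries formed separate, lower groups. The difference between the lines was −0.47 ± 0.028 (log2 fold change ± SE) at 0 h, −0.21 ± 0.052 at 8 h, −0.82 ± 0.034 at 24 h and −1.13 ± 0.049 at 48 h, the last with an adjusted p of 3.12e-10 (edgeR). From 0 h, S100A10 fell in inducible cells to 0.724 times its level at 24 h and 0.525 times at 48 h (adjusted p = 2.52e-10 and 9.38e-18, edgeR). CTRL cells fell by less, to 0.841 times at 48 h, while their change at 24 h was −0.11 ± 0.028 and not called. For S100A10 the interaction was −0.35 ± 0.046 at 24 h and −0.69 ± 0.053 at 48 h (adjusted p = 6.12e-06 and 6.46e-08, edgeR). At 8 h this interaction was 0.24 ± 0.057, with an interval of 0.13 to 0.35 and an adjusted p of 0.0220 (edgeR), which was not called. The line difference at 8 h was the weakest of these calls, since it was lost without inducible replicate 1, 2 or 3 or CTRL replicate 2 at 8 h, with adjusted p values from 0.0104 to 0.0311 (edgeR) and log2 values from −0.24 to −0.21, and with the 5 libraries described below set aside (−0.24, adjusted p = 0.0585).

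S100A11 binds annexin A1 and annexin A2 and takes part in membrane repair and in growth control of epithelial cells. In CTRL cells it measured 479, 498 and 481 CPM at 0 h, 464, 455 and 459.8 CPM at 8 h, 442, 425 and 430.1 CPM at 24 h and 389, 396 and 390.3 CPM at 48 h. The inducible cells gave 449, 455 and 451 CPM at 0 h, 545, 533 and 549.9 CPM at 8 h, 519, 505 and 498 CPM at 24 h and 476, 464 and 474 CPM at 48 h. At 0 h all inducible libraries were below all CTRL libraries, and from 8 h on all of them were above. The line difference accordingly went from −0.11 ± 0.026 at 0 h (adjusted p = 8.94e-04, edgeR) to 0.24 ± 0.044 at 8 h, 0.23 ± 0.028 at 24 h and 0.26 ± 0.037 at 48 h. S100A11 rose in inducible cells by 0.26 ± 0.025 at 8 h and 0.17 ± 0.026 at 24 h (adjusted p = 4.80e-08 and 2.62e-05, edgeR), and stood at 0.049 ± 0.027 at 48 h, which was not called. In CTRL cells the change was −0.056 ± 0.040 at 8 h, not called, −0.17 ± 0.027 at 24 h and −0.32 ± 0.036 at 48 h (adjusted p = 2.67e-04 and 2.33e-05, edgeR). S100A11 had an interaction of 0.34 ± 0.044 at 8 h, 0.34 ± 0.037 at 24 h and 0.36 ± 0.041 at 48 h (adjusted p = 3.45e-04, 2.87e-07 and 9.45e-06, edgeR). At its peak S100A11 was 1.19 times its 0 h level, a small change that the depth of 6739 to 11286 counts per library could resolve. The lower level at 0 h was lost with library totals only (−0.058, adjusted p = 0.0636, edgeR), and the higher level at 8 h was lost without inducible replicate 1 at 8 h (0.23, adjusted p = 0.0103). With 5 libraries set aside, the line difference and the interaction at 8 h were 0.22 and 0.33 and no longer called (adjusted p = 0.0539 and 0.0322), and the decrease in CTRL cells at 24 h was −0.17 and also lost (adjusted p = 0.0245, edgeR). The pseudogene S100A11P1, whose sequence resembles the gene, had 20 to 54 counts per library.

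**Figure D3:**
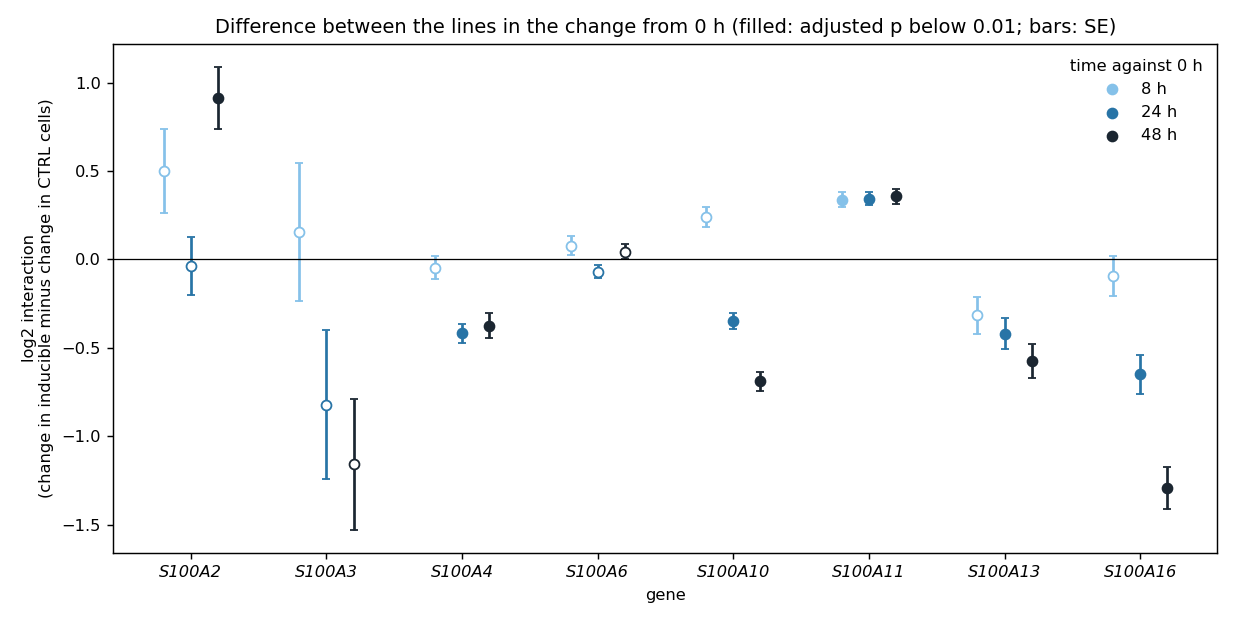
Interaction, the log2 change from 0 h in inducible cells minus that in CTRL cells (vertical axis), for the 8 S100 genes with more than a few counts, at 8, 24 and 48 h (light to dark), with bars of 1 SE and filled points for an adjusted p below 0.01. S100A11 is above 0 at all 3 times, whereas the values of S100A10, S100A13 and S100A16 are lower at each later time, from 0.24, −0.32 and −0.094 at 8 h to −0.69, −0.57 and −1.29 at 48 h.

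S100A4 binds the heavy chain of non-muscle myosin IIA and is best known for promoting motility and metastasis. In CTRL cells the 3 libraries gave 204, 216 and 203 CPM at 0 h, 129, 124 and 119.7 CPM at 8 h, 184, 176 and 182 CPM at 24 h and 197, 185 and 198 CPM at 48 h. In inducible cells they gave 155, 147 and 144 CPM at 0 h, 84.6, 86.9 and 88.9 CPM at 8 h, 95.1, 93.5 and 99.9 CPM at 24 h and 116, 99.8 and 107 CPM at 48 h. Both lines dipped at 8 h, with no overlap between the 8 h libraries and those of any other time of the same line, but CTRL cells came back close to their starting level and inducible cells stayed low. At 8 h S100A4 fell by 0.71 ± 0.054 on the log2 scale in CTRL cells and by 0.79 ± 0.035 in inducible cells (adjusted p = 3.81e-05 and 1.96e-13, edgeR), and the interaction was −0.046 ± 0.065, with an interval of −0.17 to 0.081. It was the 1 S100 gene called in CTRL cells at 8 h. By 24 h the change from 0 h was −0.20 ± 0.035 in CTRL cells and −0.62 ± 0.039 in inducible cells, and by 48 h −0.11 ± 0.048, not called, and −0.48 ± 0.044. S100A4 had an interaction of −0.42 ± 0.053 at 24 h and −0.38 ± 0.071 at 48 h (adjusted p = 4.17e-06 and 0.00166, edgeR).

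A direct comparison of 24 h with 8 h, chosen after the values had been seen, gave the size of the return. S100A4 rose by 0.52 ± 0.052 in CTRL cells and by 0.15 ± 0.038 in inducible cells (adjusted p = 2.66e-04 and 0.00232, edgeR), in comparisons that called 2.44% and 29.6% of all genes. The difference between these rises was −0.37 ± 0.065 (adjusted p = 0.00163, edgeR), against 3.07% of all genes called. S100A10 and S100A16 also differed in this interval, by −0.59 ± 0.063 and −0.56 ± 0.12. At each time S100A4 was lower in inducible cells, with log2 differences of −0.49 ± 0.037 at 0 h, −0.52 ± 0.054 at 8 h, −0.91 ± 0.037 at 24 h and −0.84 ± 0.059 at 48 h, and the 24 h value corresponded to 0.531 times the CTRL level (adjusted p = 4.50e-17, edgeR). The small decrease in CTRL cells at 24 h was lost without CTRL replicate 2 at 24 h (−0.18, adjusted p = 0.0131) and with the 5 libraries set aside (−0.22, adjusted p = 0.0196).

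S100A6, or calcyclin, binds annexins and the ubiquitin ligase adaptor CACYBP and marks proliferating cells. Its levels in CTRL cells were 618, 655 and 631 CPM at 0 h, 592, 547 and 544 CPM at 8 h, 554, 541 and 552 CPM at 24 h and 473, 488 and 474 CPM at 48 h. Those in inducible cells were 561, 546 and 558 CPM at 0 h, 523, 509 and 530.0 CPM at 8 h, 464, 453 and 449.8 CPM at 24 h and 442, 428 and 439 CPM at 48 h. S100A6 declined in both lines, and all inducible libraries lay below the CTRL libraries of their time. By 48 h it fell to 0.752 times its 0 h level in CTRL cells and to 0.780 times in inducible cells (adjusted p = 3.41e-06 and 3.49e-11, edgeR). Its interaction was 0.044 ± 0.044, with an interval of −0.043 to 0.13, and it was −0.070 ± 0.037 at 24 h and 0.077 ± 0.053 at 8 h, none of them called. Between the lines the difference was −0.20 ± 0.027 at 0 h, −0.28 ± 0.027 at 24 h and −0.14 ± 0.038 at 48 h, all called, and −0.11 ± 0.050 at 8 h, not called. The call at 48 h was lost without any 1 of inducible replicates 1, 2 and 3 or CTRL replicates 2 and 3 (log2 −0.15 to −0.12, adjusted p from 0.0163 to 0.0595, edgeR). It was also lost by DESeq2 (−0.14, adjusted p = 0.0101) and with library totals only (−0.12, adjusted p = 0.0113, edgeR). With the 5 libraries set aside it was lost as well (−0.125, adjusted p = 0.017, edgeR). The decrease in inducible cells at 8 h (−0.10 ± 0.026) was lost without inducible replicate 1 or 3 at 0 h or replicate 2 at 8 h (log2 −0.093 to −0.082, adjusted p from 0.0154 to 0.0264). Library totals only (−0.075, adjusted p = 0.0159, edgeR) and the model of all 24 libraries (−0.093, adjusted p = 0.0289, edgeR) also ended that call.

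S100A16 is a widely expressed S100 protein, and it was called in all 4 comparisons between the lines. Its fold of inducible over CTRL cells was the highest among the tested genes of the 10 at each time. By size alone, the log2 differences of S100P at 0 h (−2.72) and S100A10 at 48 h (−1.13) were larger. CTRL cells had 7.68, 7.49 and 8.63 CPM at 0 h, 8.08, 7.61 and 7.05 CPM at 8 h, 8.41, 7.12 and 7.74 CPM at 24 h and 12.8, 10.5 and 11.5 CPM at 48 h. Inducible cells had 41.5, 43.5 and 40.0 CPM at 0 h, 38.0, 36.4 and 38.2 CPM at 8 h, 26.9, 25.7 and 24.6 CPM at 24 h and 26.2, 24.7 and 24.5 CPM at 48 h. The lines did not overlap at any time, and they approached each other from both sides, the inducible cells by 24 h and the CTRL cells at 48 h. S100A16 was 5.21-fold higher in inducible cells at 0 h, 4.93-fold at 8 h, 3.31-fold at 24 h and 2.16-fold at 48 h (log2 2.38 ± 0.071 and 1.11 ± 0.088 at 0 and 48 h, adjusted p = 7.02e-16 and 1.84e-07, edgeR). Within inducible cells it changed by −0.16 ± 0.048 at 8 h, −0.69 ± 0.056 at 24 h and −0.74 ± 0.056 at 48 h (adjusted p = 0.00867, 8.21e-10 and 2.93e-11, edgeR). In CTRL cells the change was −0.040 ± 0.11 at 8 h and −0.037 ± 0.10 at 24 h, not called, and 0.54 ± 0.11 at 48 h (adjusted p = 0.00167, edgeR). For S100A16 the interaction reached −0.65 ± 0.11 at 24 h and −1.29 ± 0.12 at 48 h (adjusted p = 2.26e-04 and 4.36e-07, edgeR), and was −0.094 ± 0.11 at 8 h, not called. The decrease at 8 h was lost without any 1 of the 6 libraries (log2 −0.19 to −0.13, adjusted p from 0.0101 to 0.0725) and by DESeq2 (−0.16, adjusted p = 0.0924). The increase in CTRL cells at 48 h was lost without CTRL replicate 1 or 2 at 0 h (0.49 to 0.50, adjusted p = 0.0101 to 0.0115).

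S100A13 has a part in the release of FGF1 and IL1A from cells by a route outside the secretory pathway. It stood at 22.4, 21.4 and 21.3 CPM at 0 h, 24.6, 24.4 and 21.3 CPM at 8 h, 24.5, 21.5 and 22.3 CPM at 24 h and 27.6, 28.2 and 26.2 CPM at 48 h in CTRL cells. The corresponding levels in inducible cells were 34.3, 31.0 and 34.0 CPM at 0 h, 30.8, 27.5 and 27.9 CPM at 8 h, 25.3, 24.8 and 26.8 CPM at 24 h and 27.9, 26.5 and 30.4 CPM at 48 h. The lines were apart at 0 h and overlapped at 48 h, as CTRL cells went up and inducible cells came down. S100A13 was 1.51-fold higher in inducible cells at 0 h (log2 0.60 ± 0.061, adjusted p = 9.71e-08, edgeR), and the difference was 0.29 ± 0.086 at 8 h, 0.17 ± 0.065 at 24 h and 0.046 ± 0.074 at 48 h, none called. It changed by −0.36 ± 0.060 at 24 h and −0.24 ± 0.062 at 48 h in inducible cells, and by 0.33 ± 0.069 at 48 h in CTRL cells, all 3 called. Its interaction was −0.42 ± 0.089 at 24 h and −0.57 ± 0.097 at 48 h (adjusted p = 0.00215 and 5.39e-04, edgeR). The one at 24 h was lost without inducible replicate 1 or 3 at 0 h, CTRL replicate 3 at 0 h or CTRL replicate 1 at 24 h (log2 −0.40 to −0.36, adjusted p from 0.0106 to 0.0147) and with the 5 libraries set aside (−0.42, adjusted p = 0.0182). The decrease in inducible cells at 48 h was lost without inducible replicate 1 at 0 h or replicate 2 at 48 h (adjusted p = 0.0317 and 0.0194 at the extremes, log2 −0.20 to −0.19). The increase in CTRL cells was lost without CTRL replicate 2 or 3 at 0 h (0.29 to 0.30, adjusted p from 0.0178 to 0.0219), and with the replicate number as a block (0.32, adjusted p = 0.0106). ENSG00000271853, which shares exon bases with S100A13, had at most 1 count per library, and S100A1 had 2 to 26.

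S100A2 is expressed mainly in stratified and other epithelia and binds the tumour suppressor p53. CTRL libraries had 8.86, 8.14 and 9.46 CPM at 0 h, 6.01, 5.21 and 5.52 CPM at 8 h, 5.27, 5.30 and 6.44 CPM at 24 h and 3.19, 3.88 and 2.90 CPM at 48 h. Inducible libraries had 8.64, 6.97 and 7.60 CPM at 0 h, 5.74, 5.78 and 10.1 CPM at 8 h, 5.31, 4.77 and 4.36 CPM at 24 h and 5.89, 5.49 and 5.08 CPM at 48 h. The lines overlapped at 0, 8 and 24 h, and parted at 48 h, when the CTRL cells reached their lowest level. S100A2 fell in CTRL cells by 0.64 ± 0.11 on the log2 scale at 24 h and by 1.42 ± 0.13 at 48 h (adjusted p = 5.74e-04 and 5.78e-06, edgeR), and in inducible cells by 0.68 ± 0.12 and 0.50 ± 0.12 (adjusted p = 1.41e-04 and 9.10e-04). At 48 h it was 1.66-fold higher in inducible cells (log2 0.73 ± 0.15, adjusted p = 9.42e-04, edgeR), and the interaction was 0.91 ± 0.18 (adjusted p = 0.00181, edgeR). At 24 h the interaction was −0.037 ± 0.16, with an interval of −0.36 to 0.29. The decrease in CTRL cells at 8 h, −0.63 ± 0.11, missed the threshold with an adjusted p of 0.0103 (edgeR). The decrease in inducible cells at 48 h was lost without inducible replicate 1 at 0 h (−0.40, adjusted p = 0.0139) and by DESeq2 (−0.51, adjusted p = 0.0150), and the one in CTRL cells at 24 h with the 5 libraries set aside (−0.69, adjusted p = 0.0126). Inducible replicate 3 at 8 h, with the highest S100A2 level of all libraries, was also the one with the highest sum of 8 genes of stratified epithelia (32.1 CPM, against a median of 0.218 CPM), and the part of this in its S100A2 value was not tested. Inducible replicate 2 at 8 h (5.21 CPM) and replicates 2 and 3 at 48 h (7.57 and 8.18 CPM) also had raised sums of these genes. At 48 h, inducible replicate 1, with a sum of 0.283 CPM, had the highest S100A2 level of the group. The log2 difference between the lines at 48 h stayed called with any 1 of the 6 libraries left out (0.63 to 0.84). Each of these fits kept at least 1 inducible library with a raised sum, and the part of these genes in the difference was not tested.

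S100A3, a zinc- and calcium-binding protein known from the hair cuticle, was a low gene that, like S100A16, was higher in inducible cells. CTRL cells gave 0.729, 0.838 and 0.418 CPM at 0 h, 0.739, 0.839 and 0.451 CPM at 8 h, 0.585, 0.594 and 0.467 CPM at 24 h and 1.10, 1.23 and 0.738 CPM at 48 h. For inducible cells the levels were 2.83, 2.34 and 2.48 CPM at 0 h, 3.05, 3.23 and 2.44 CPM at 8 h, 1.45, 0.906 and 1.23 CPM at 24 h and 1.70, 1.69 and 1.99 CPM at 48 h. No library of the inducible cells reached down to a CTRL library of the same time. S100A3 was 3.83-fold higher in inducible cells at 0 h, 4.31-fold at 8 h and 2.16-fold at 24 h (adjusted p = 3.83e-06, 4.63e-05 and 0.00383, edgeR), and the difference at 48 h, 0.80 ± 0.25, was not called. In inducible cells it fell by 1.08 ± 0.22 on the log2 scale at 24 h (adjusted p = 7.33e-04, edgeR). Its interaction, −0.82 ± 0.42 at 24 h and −1.16 ± 0.37 at 48 h, was not called at these 8 to 62 counts per library. The higher level at 24 h was lost without inducible replicate 1 or 3 or any CTRL replicate at 24 h (log2 0.96 to 1.18, adjusted p from 0.0113 to 0.0273), and by DESeq2 (1.12, adjusted p = 0.0520). Reads of S100A3 fall within the span of S100A4, whose difference between the lines had the opposite sign. Whether S100A4 transcripts added to the S100A3 counts was not tested.

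S100P, first found in placenta, binds ezrin and the receptor AGER and is a known marker of pancreatic carcinoma, but it was close to the limit of detection here. Raw counts in CTRL cells were 11, 21 and 30 at 0 h, 3, 26 and 4 at 8 h, 20, 26 and 25 at 24 h and 8, 19 and 8 at 48 h. In inducible cells they were 4, 5 and 1 at 0 h, 14, 6 and 0 at 8 h, 11, 18 and 13 at 24 h and 16, 22 and 13 at 48 h. The inducible cells were lowest at 0 h and higher in every library at 24 and 48 h, while the CTRL counts varied widely between replicates at 0, 8 and 48 h. S100P was lower in inducible cells at 0 h, with a log2 difference of −2.72 ± 0.47 (adjusted p = 7.23e-05, edgeR), and rose in inducible cells by 1.92 ± 0.47 at 24 h and 2.31 ± 0.43 at 48 h (adjusted p = 0.00402 and 8.10e-05, edgeR). At 8 and 24 h the interaction, 2.04 ± 1.21 and 1.93 ± 0.59, was not called, and at 48 h it was 3.17 ± 0.68 (adjusted p = 0.00454, edgeR). The rise at 24 h was lost without inducible replicate 1, 2 or 3 at 0 h or replicate 2 or 3 at 24 h (log2 1.55 to 2.22, adjusted p from 0.0117 to 0.0409). That interaction was lost without any 1 of 8 libraries, namely all inducible libraries at 0 h, inducible replicates 1 and 2 at 48 h, CTRL replicates 2 and 3 at 0 h and CTRL replicate 3 at 48 h (2.80 to 3.47, adjusted p from 0.0118 to 0.0200). In a model of all 24 libraries both rises and the interaction were lost, with adjusted p values of 0.101 for 24 h, 0.0155 for 48 h and 0.0310 for the interaction. At 8 h S100P did not pass the low-count filter between the lines or within the inducible cells.

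S100A14, an S100 gene of epithelia, had between 0 and 30 counts per library, and under 10 in 18 of the 24 libraries. It did not pass the low-count filter in any comparison of 2 groups, and its interaction was 0.77 ± 1.18 at 8 h and −0.16 ± 1.04 at 48 h, with adjusted p values of 0.745 and 0.957 (edgeR). Its highest counts were 30 in CTRL replicate 2 at 48 h and 18 in CTRL replicate 2 at 8 h, where the other CTRL replicates of these times had 0 to 6. The same 2 libraries had the highest sums of 12 genes of gut epithelium (40.2 and 14.7 CPM, against a median of 1.64 CPM), and S100P counts of 19 and 26 that were above those of the other replicates of their groups. These 12 genes were chosen after the values had been seen, and their part in the S100A14 and S100P counts was not tested.

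**Figure D4:**
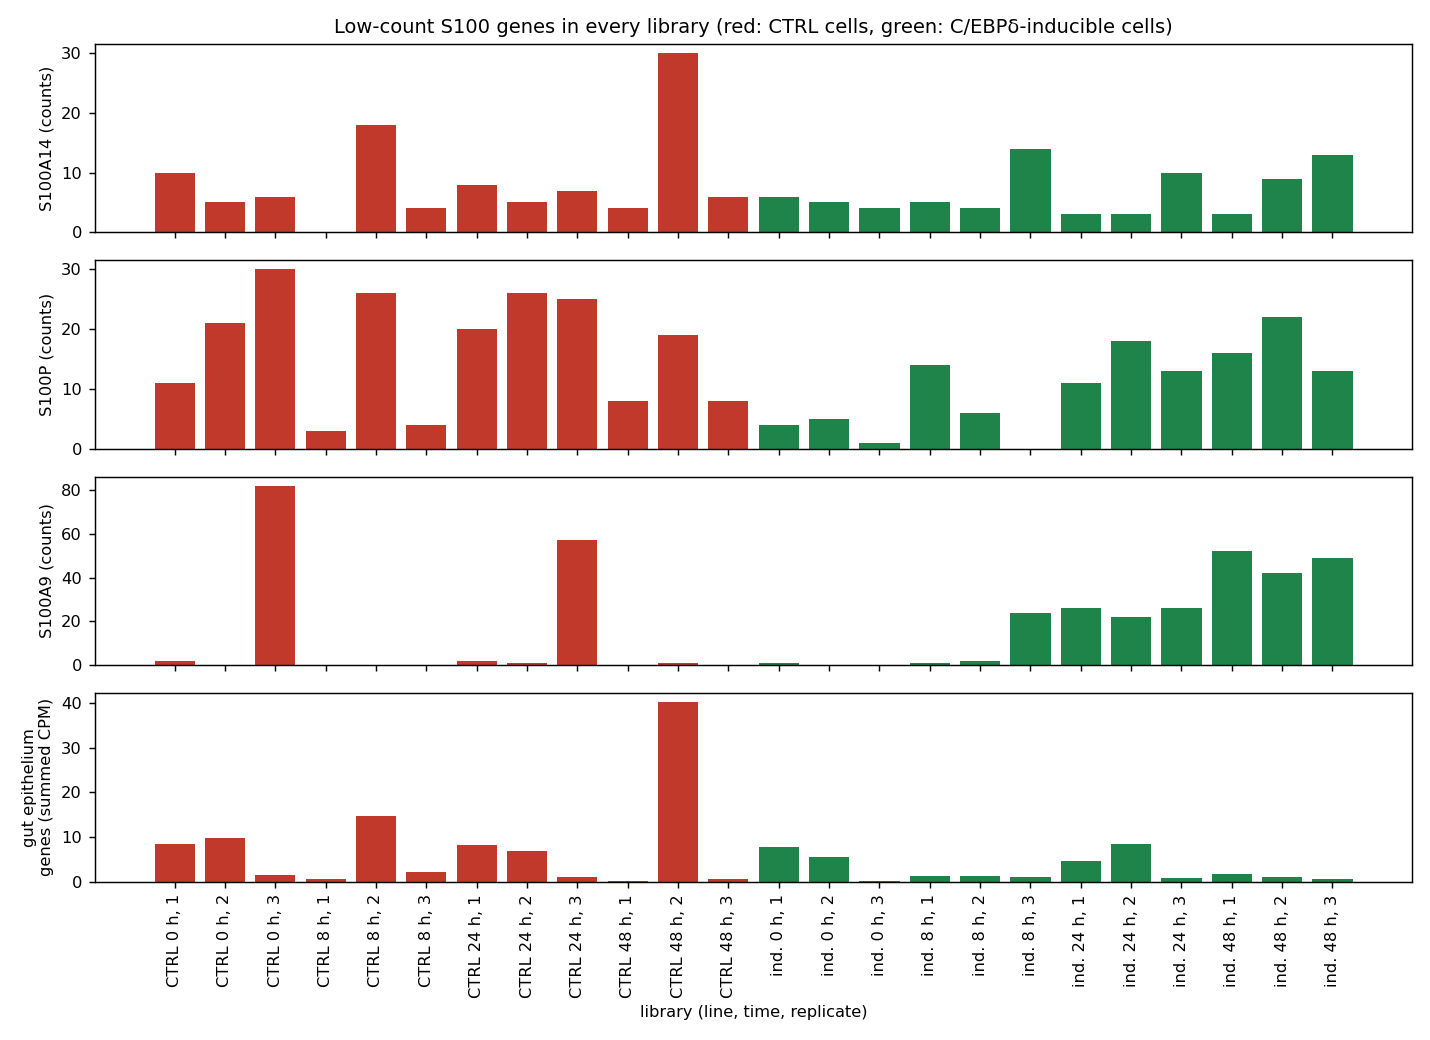
Raw counts of S100A14, S100P and S100A9, and the summed CPM of 12 gut epithelium genes (bottom), in each of the 24 libraries, red for CTRL and green for inducible cells (ind.). CTRL replicate 2 stands out at 8 and 48 h in S100A14 and in the bottom panel, and S100A9 is raised in the inducible libraries at 24 and 48 h and in CTRL replicate 3 at 0 and 24 h.

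The 5 libraries with the highest sums of the gut, stratified epithelium and S100A9-associated genes, 2 for the first, 1 for the second and 2 for the third list (CTRL replicate 2 at 8 and 48 h, CTRL replicate 3 at 0 and 24 h, and inducible replicate 3 at 8 h) were set aside in 1 further fit, chosen after the data had been seen. Libraries with smaller raised sums were kept. Without the 5 the S100 genes called fell from 5 to 3 between the lines at 8 h, from 4 to 1 in CTRL cells at 24 h and from 1 to 0 for the interaction at 8 h. Among all genes, calls between the lines at 8 h fell from 4946 of 15561 to 2256 of 15713. The interactions of S100A10, S100A16 and S100A4 at 24 and 48 h were still called in that fit.

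Partners of the S100 proteins were described from a list of 35 genes, comprising annexins, the plasminogen system, cytoskeletal and ubiquitin-related targets, export factors and receptors. At 24 h 19 of 27 tested differed between the lines (6 higher, 13 lower), against 46.9% of all genes, and 12 of 27 changed from 0 h in inducible cells (3 higher, 9 lower), against 15.5%. In CTRL cells 11 of 26 changed from 0 h at 24 h (2 higher, 9 lower), against 6.06% of all genes. The interaction at 24 h was called for 10 of 27, 3 higher and 7 lower, against 5.84%, with a median of −0.093 against −0.00094 over all genes. The other 8 listed genes, among them ANXA3, PLG, IL1A and TLR4, did not pass the low-count filter there.

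Annexin A1, the partner of S100A11, had an interaction of the same sign as S100A11. ANXA1 was at 1261 ± 25.1 CPM in CTRL cells and 581 ± 5.33 CPM in inducible cells at 0 h, and at 1005 ± 14.1 and 759 ± 21.2 CPM at 24 h. The ANXA1 interaction was 0.57 ± 0.048 at 8 h, 0.72 ± 0.034 at 24 h and 0.61 ± 0.049 at 48 h (adjusted p = 6.70e-06, 1.43e-13 and 8.19e-08, edgeR). Unlike S100A11, ANXA1 remained lower in inducible cells at every time, with log2 differences of −1.13 ± 0.024 at 0 h and −0.41 ± 0.026 at 24 h.

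Annexin A2, the partner of S100A10, did not share the difference between the lines. ANXA2 was higher in inducible cells at 0 h (1263 ± 5.78 against 781 ± 17.0 CPM) and at 24 h (925 ± 12.1 against 655 ± 9.33 CPM), where S100A10 was lower. It fell in both lines by 48 h, by 0.71 ± 0.024 on the log2 scale in inducible cells and 0.59 ± 0.034 in CTRL cells, and its interaction was −0.18 ± 0.032 at 24 h (adjusted p = 2.02e-04, edgeR) and −0.13 ± 0.039 at 48 h, not called. AHNAK, a giant scaffold protein that binds the S100A10 and annexin A2 complex, fell from 2943 ± 31.5 to 1511 ± 22.0 CPM in inducible cells at 24 h and from 3155 ± 121 to 2472 ± 155 CPM in CTRL cells. The AHNAK interaction was −0.60 ± 0.045 at 24 h and −0.26 ± 0.045 at 48 h (adjusted p = 6.89e-10 and 6.86e-04, edgeR).

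**Figure D5:**
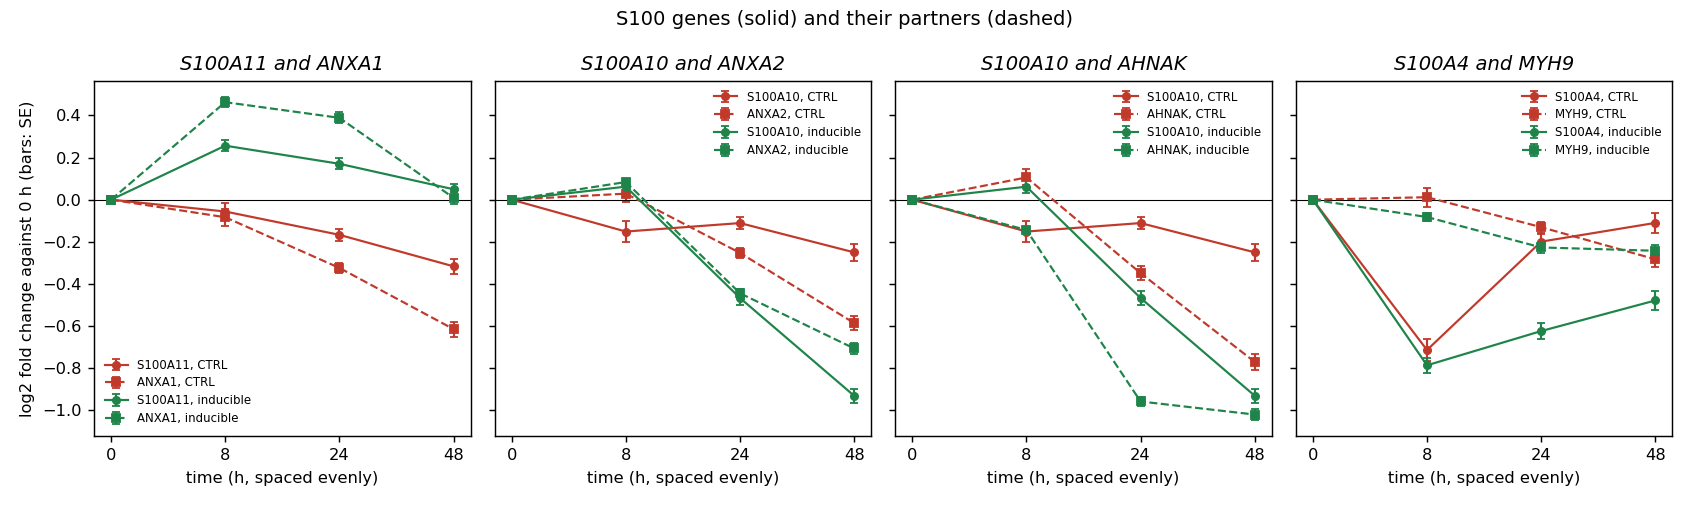
Log2 fold change against 0 h (vertical axis, bars of 1 SE) at 8, 24 and 48 h (horizontal axis, spaced evenly) for an S100 gene (solid) and a partner (dashed) in CTRL (red) and inducible (green) cells. S100A11 and ANXA1 lie above 0 in inducible cells at 8 and 24 h and below it in CTRL cells, ANXA2 falls in both lines, and MYH9 lies near 0 at 8 h, where S100A4 is lowest in both lines.

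MYH9, the myosin heavy chain that S100A4 binds, differed from 0 h by 0.012 ± 0.046 at 8 h in CTRL cells (not called) and by −0.082 ± 0.018 in inducible cells (called), and its interaction at 24 h was −0.090 ± 0.038, not called. EZR, encoding the S100P partner ezrin, was lower in inducible cells at each time, from −0.49 ± 0.025 at 0 h to −0.99 ± 0.027 at 24 h, with an interaction of −0.49 ± 0.036 at 24 h (adjusted p = 6.56e-10, edgeR). Of the plasminogen system, to which S100A10 at the cell surface belongs, the urokinase receptor PLAUR had a called interaction at each time, 0.40, 0.52 and 0.35 at 8, 24 and 48 h, and urokinase, PLAU, one of −0.30 at 24 h. SYT1, an export partner of S100A13, had −0.37 at 24 h and −0.44 at 48 h, both called. The remaining calls at 24 h were ANXA5 (−0.31), the receptor BSG (0.15) and PLAT (−2.71), the last with 2 to 20 counts per library in the 4 groups compared.

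Among 11 further S100 genes, S100A5 was the 1 with at least 39 counts in every library. It was lower in inducible cells at 0 h (2.73 ± 0.181 against 5.04 ± 1.18 CPM), with log2 differences of −0.89 ± 0.17 at 0 h, −0.64 ± 0.15 at 8 h and −1.19 ± 0.16 at 24 h, all called, and of −0.22 ± 0.15 at 48 h, not called. S100A9, a subunit of calprotectin, had 1, 0 and 0 counts at 0 h, 1, 2 and 24 counts at 8 h, 26, 22 and 26 counts at 24 h and 52, 42 and 49 counts at 48 h in inducible cells. CTRL cells had 2, 0 and 82 counts of S100A9 at 0 h, 0, 0 and 0 at 8 h, 2, 1 and 57 at 24 h and 0, 1 and 0 at 48 h. In inducible cells S100A9 was thus at least 7.50-fold higher at 24 h and at least 16.4-fold higher at 48 h than at 0 h, with a limit of 3 counts in each 0 h library. The call at 24 h (log2 5.65 ± 0.63) was lost in the model of all 24 libraries (5.63, adjusted p = 0.0702, edgeR). At 24 h the line difference (0.27 ± 0.59) and the interaction (6.31 ± 2.14, adjusted p = 0.0642, edgeR) were not called. CTRL replicate 3 at 0 and 24 h, with 82 and 57 counts, were also the libraries with the most S100A8 (32 and 35 counts) and the highest sums of 7 genes that go with S100A9 there (13.4 and 11.2 CPM), a list chosen after the values had been seen. In inducible libraries the sums of these 7 genes were 0.550 to 1.13 CPM at 0 h and 1.32 to 4.48 CPM at 8 h. They were 1.43 to 2.15 CPM at 24 h and 2.10 to 3.89 CPM at 48 h, and their part in the S100A9 counts was not tested. S100Z had 6 to 7 counts in each CTRL library at 0 h and 0 in the inducible libraries at 0, 8 and 24 h. S100A7, S100A7A, S100A7L2, S100A12, S100B and S100G had 5 counts or fewer in every library.

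The neighbourhood on chromosome 1 was described as 141 other genes from 500 kb before to 500 kb after the S100 genes. Only the S100 genes of the set were left out, so further S100 genes such as S100A5 and S100A9 were among the 141. At 24 h the interaction was called for 0 of 33 tested neighbours, against 5.84% of all genes, and at 48 h for 2 of 33 (6.06%), against 5.54%. These 2 were 1 higher, which was S100A9, and 1 lower. Between the lines at 24 h, 11 of 31 neighbours differed (35.5%), against 46.9% of all genes. Over the 8 group means of log2(CPM + 1), the genes whose pattern was most like that of S100A16 were PDE4DIP (Pearson r = 0.994), SYTL4 (0.991) and ENSG00000260948 (0.990) among 13575 genes, and those most like S100A10 were PUDP (0.983), CKB (0.977) and VRK1 (0.976). These r values describe 8 means that come from the same libraries.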

How the data were processed

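The authors extracted total RNA from MIA PaCa-2 cells, depleted ribosomal RNA, trimmed the reads with Trimmomatic, mapped them with HISAT2 on GRCh38 and assigned them to genes with HTSeq (the submitters' processing notes give Trimmomatic 0.36). The strand setting is not given in the sources used here. The deposited values are raw counts per gene and library, without normalization, filter or pooling. The study describes seeding the cells for RNA in triplicate wells, with 24 h of doxycycline or without it. It calls the samples biological triplicates where it shows cells before and 24 h after doxycycline. Whether the wells were seeded on separate occasions is not stated. The p values thus measure the spread between these samples, which may be that between parallel wells and partly technical. Interval and limit statements cover counting error or model SE only.

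Symbols and positions came from GENCODE release 44 on GRCh38, to which 56558 of 60675 identifiers matched. TMM factors and edgeR 4.0.16 in R 4.3.3 (quasi-likelihood test, two-sided, default low-count filter) were applied to the libraries of each comparison and to all genes, with Benjamini-Hochberg adjustment and an FDR of 0.01, in 13 comparisons. Intervals are the log2 value ± 1.96 SE. Levels are CPM with the SD of 3 libraries, and union exon length gave CPM per kb. The tests were tried on simulated counts, with 50 genes changed at each fold. For inducible cells at 24 h against 0 h, edgeR recovered 6%, 50% and 94% of changes of 1.25-, 1.5- and 2-fold. For the interaction at 24 h these shares were 2%, 20% and 74%. Analysis of variance recovered 0% at every fold up to 4. The simulation used a fixed dispersion and changed few genes, unlike the data, so these shares do not carry over to the data. In the data, analysis of variance called 498 of 15560 genes in inducible cells at 24 h against 0 h. Why it lost calls that edgeR made was not tested. Totals of 12731237 to 22598595 counts set the precision, and 3 counts were taken as the limit of detection.

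The S100 genes, the partner and marker lists and the tests were chosen with earlier results of these data known. Every S100 gene of the set is named, with library values for those called in any comparison. Partners are named where the interaction at 24 h was called or where an S100 gene described is their known partner, and the 3 genes most like S100A16 and S100A10, the genes of the widest range of group means, are named among those with a mean of at least 1 CPM. Same-numbered replicates were checked for pairing by the correlation of their deviations from group means: mean r ran from −0.0953 to 0.16, and only CTRL 24 h against 0 h had each r over 0.1 (0.143, 0.147 and 0.19). Chi-square per gene between replicates was 1.66 to 16.7, so no library was counted as a duplicate. Alternatives were DESeq2 1.42.0, RLE factors, library totals only, no filter, a minimum of 10 counts, a model of all 24 libraries, the replicate block, analysis of variance on log2(CPM + 1), each library left out, and 5 libraries set aside.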

Additional observations from a re-analysis of the deposited data

Results flagged for a closer look

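Each result here was noted because the change from 0 h differed between the C/EBPδ-inducible and the CTRL cells in edgeR's test of that interaction. The values are log2 changes in inducible cells minus those in CTRL cells. At 8 h S100A11 differed by 0.34. At 24 h the differences were −0.42 for S100A4, −0.35 for S100A10, 0.34 for S100A11, −0.42 for S100A13 and −0.65 for S100A16. At 48 h they were 0.91 for S100A2, −0.38 for S100A4, −0.69 for S100A10, 0.36 for S100A11, −0.57 for S100A13, −1.29 for S100A16 and 3.17 for S100P.

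S100A9, outside the 10 genes, had a fitted difference of 12.68 at 48 h, a value that depends on the prior count because 0 h inducible and 48 h CTRL libraries had 0 or 1 count. Without CTRL replicate 3 at 0 h it was 8.11 and no longer called (adjusted p = 0.0304, edgeR).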

How the results depend on the processing

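No called value of an S100 gene changed sign under any alternative run. Of the single values, 529 kept the call and 40 lost it under alternatives other than leaving out 1 library, and 472 and 50 did so with 1 library left out. The number of S100 genes called moved by more than 1.5 times in these cases. With 5 libraries set aside it was 3 in place of 5 between the lines at 8 h, 1 in place of 4 in CTRL cells at 24 h, and 0 in place of 1 for the interaction at 8 h, where DESeq2 gave 2. In inducible cells at 8 h it was 2 in place of 4 with library totals only and 2 in the model of all 24 libraries, and at 24 h it was 3 in place of 9 by analysis of variance on log2(CPM + 1). Among all genes, calls at 8 h were 4693 of 15395, against 4735 with library totals only and 3127 of 17023 in the 24-library model. At 24 h they were 498 of 15560 by analysis of variance, against 2407 of 15560 with edgeR. In CTRL cells at 8 h the number of S100 genes called was 1, against 2 with RLE factors, 3 without a filter, 2 with a minimum of 10 counts and 4 in the model of all 24 libraries. Among all genes, 259 of 15253 were called there, against 275 with RLE factors and 266 of 13965 with a minimum of 10 counts. Without a filter 843 of 31406 genes were called, and 1229 of 17023 in the model of all 24 libraries. With 1 library left out, the numbers of S100 genes called ranged from 3 to 6 between the lines at 8 h (3 without inducible replicate 1 at 8 h), from 2 to 4 in inducible cells at 8 h (2 without inducible replicate 1 or 3 at 0 h or replicate 2 at 8 h), from 1 to 3 in CTRL cells at 8 h (3 without CTRL replicate 1 at 8 h) and from 1 to 2 for the interaction at 8 h (2 without CTRL replicate 3 at 8 h). The cause was not tested. The replicate number as a block ended no call of an S100 gene other than S100A13 in CTRL cells at 48 h (0.32, adjusted p = 0.0106), and moved no count of S100 genes called by over 1.5 times. Single values were followed only for genes called without the alternatives, so calls gained under an alternative are not listed. Low counts limited S100A14, S100P and S100A3, and the effect of the strand setting on S100A13 was not tested.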
